A study of Mus musculus with 24 samples.

Results

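Pyruvate, lactate and glucose use was followed through 10 of 55471 annotated genes. The 10 were chosen by name for their roles in this route and not by a cut on their values, though earlier results of these data were known. They are the E1 subunits of the pyruvate dehydrogenase complex (Pdha1, Pdhb), the lactate dehydrogenase subunits (Ldha, Ldhb), a pair of glucose transporters (Slc2a1, Slc2a3), the lactate and pyruvate transporter Slc16a1, and 3 enzymes of glycolysis (Hk1, Pfkl, Pkm). All 10 symbols matched 1 protein-coding gene each.

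The fertilized mouse egg takes up pyruvate and lactate and makes little use of glucose through its first cleavage, and glucose uptake and glycolysis gain weight later in preimplantation development. Lactate dehydrogenase, a tetramer of Ldha and Ldhb chains, interconverts lactate and pyruvate, and the pyruvate dehydrogenase complex turns pyruvate into acetyl-CoA in the mitochondrion. Hexokinase, phosphofructokinase and pyruvate kinase catalyse the steps of glycolysis that are essentially irreversible.

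RNA came from wild-type B6D2F1 mice, as unfertilized metaphase II (MII) oocytes, late 1-cell (L1C) embryos and late 2-cell (L2C) embryos. Oocytes were taken from oviducts of superovulated females. Embryos were taken from oviducts as zygotes and cultured in KSOM medium until they were collected. Stage and time in culture therefore cannot be told apart. For each stage, SLIM-seq gave 3 input libraries and 3 libraries immunoprecipitated with an anti-m6A antibody (IP). N6-methyladenosine (m6A) is a methyl mark on adenosines of mRNA, and Ythdc1 is a nuclear protein that binds it. In a separate experiment zygotes received Cas13d mRNA with crRNAs against Ythdc1 (KD) or Cas13d mRNA only (Ctrl), and L2C embryos were sequenced, with 3 libraries per group. Cas13d is an RNA-guided nuclease that cuts RNA; the control embryos carried it too, without a crRNA. The labels do not say whether libraries of a group came from separate collections of embryos, so P values measure the spread between libraries, which may be technical. Libraries were made from pooled RNA of many cells, and in such bulk samples less RNA per cell cannot be told apart from fewer cells. Levels are shares of a library, so a change of total RNA per embryo is not seen. Priming was with oligo-dT, and changes of poly(A) tail length, which could alter levels, were not measured.

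SLIM-seq libraries held 11107421 to 39739950 estimated counts. KD libraries held 8696476 to 14500548 counts over the whole annotation, and between 3276715 and 5463868 in the merged table. The table ends on chromosome 7 and holds 6 of the 10 genes. For the other 4 genes (Pdhb, Hk1, Pfkl, Pkm) KD replicate 3 has no value, and KD is 2 libraries against 3. Ythdc1, the targeted transcript, was at 521, 539 and 518 CPM (read counts scaled to an equal total per library) of the table in KD and at 1077, 1094 and 991 in Ctrl, a log2 change of -1.0 ± 0.06 (SE; adjusted p = 1.3e-10). The summed level of 10 oocyte markers was 20875 to 22155 CPM in MII inputs, 7322 to 7595 in L1C and 892 to 922 in L2C inputs, and that of 12 markers of the 2-cell embryo was 30.6 to 36, 141 to 189 and 744 to 963 CPM. Of 12 markers of cumulus and granulosa cells Ptx3 was at 0 in every input, Foxl2 was at or near 0, and the sum was 66.9 to 74.3 CPM at MII, 56.1 to 61.8 at L1C and 357 to 390 at L2C, where Amhr2 (256 CPM) and Nr5a2 (119 CPM) made up most of it. Of the 8 that could be tested from MII to L2C, these 2 rose and 6 fell, among them Cyp19a1 from 35.6 to 1.48 CPM. Of 6 sperm markers 2 could be tested from MII to L2C, and 1 rose and 1 fell. Prm1 was at 0 at MII and L1C, at a mean of 61.8 CPM in L2C inputs and at 0 in Ctrl. Prm2 fell from 2.54 to 0.864 CPM, and Tnp1, Tnp2, Odf1 and Akap4 had means of at most 0.517 CPM in the inputs. The part of these cell types in the changes between stages was not tested.

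Throughout, a gene was called when its p value from edgeR's quasi-likelihood test, adjusted over all genes tested by the method of Benjamini and Hochberg (BH), was under 0.05. A ± after a log2 change is its standard error. CPM are scaled by TMM factors, which are chosen so that most genes show little difference between libraries. Input values depend on a gene's length and are compared between genes only per kb.

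From MII to L2C all 10 genes were called, 8 higher and 2 lower, beside 47.5% of 19903 genes tested that were called higher and 37.1% lower. Their median log2 change was 1.12, against 0.40 for all genes tested. Ldhb and Slc2a1 were the genes that fell. From MII to L1C 3 of the 10 rose and 3 fell, where 31.9% of all genes were called higher and 24.3% lower, and from L1C to L2C 7 rose and 2 fell, where the shares of all genes were 44.1% and 38.8%. In each of these comparisons most of the genes tested were called, so the sizes of these changes depend on the scaling. Libraries of the groups compared did not overlap for 61.2% of genes from MII to L1C, 84.2% from L1C to L2C and 86.3% from MII to L2C.

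**Figure D1:**
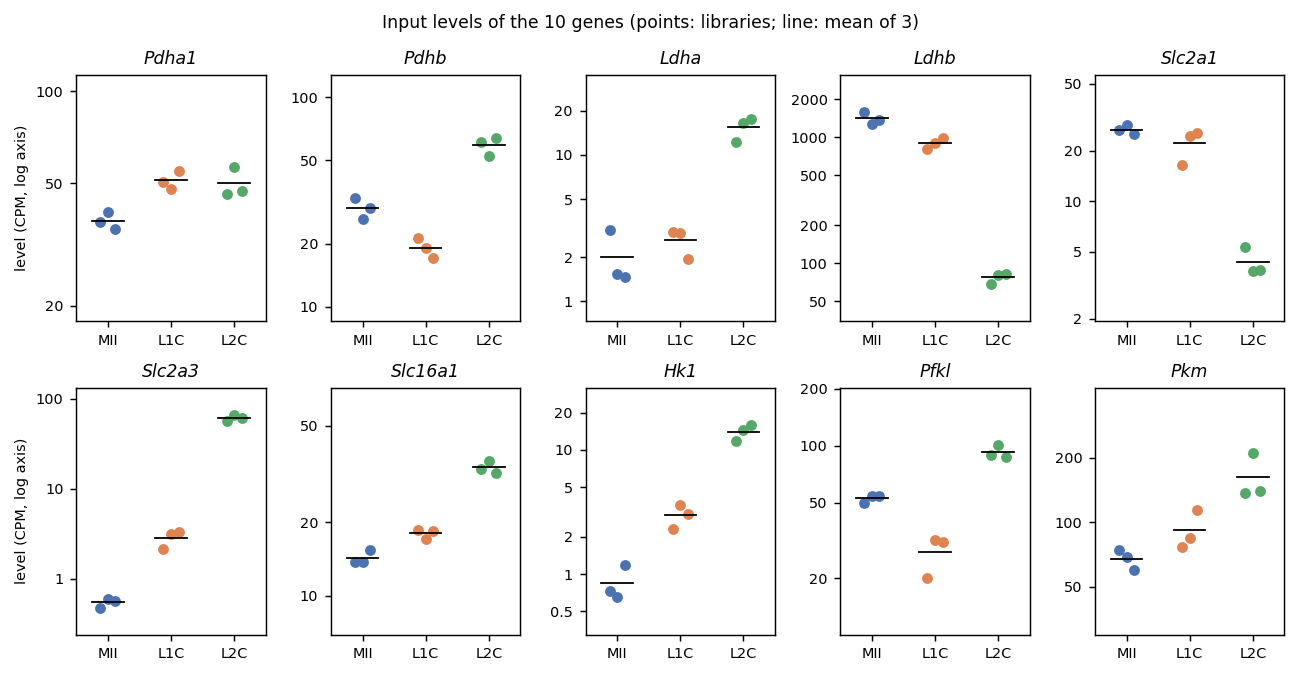
Levels of the 10 genes in the 9 inputs, in CPM on a log axis that differs between panels; each point is a library (3 per stage) and each line the mean. Ldhb and Slc2a1 fall to L2C, while Slc2a3 and Hk1 rise at each step.

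Lactate dehydrogenase showed the widest gap between subunits. Ldhb, the subunit known for the heart isozyme, lies on the minus strand (chr6:142490249-142507957, GRCm38), and Ldha, known for the muscle isozyme, on the plus strand (chr7:46841475-46855627). The windows below span the annotated RefSeq transcription starts of these genes with opposite courses (300 bases each, build GRCm38.p6, 5′ to 3′ on the gene's strand). Capitals mark the E-box CACGTG, which reads the same on both strands. The Ldha window is chr7:46845554-46845853 and the Ldhb window chr6:142507908-142508207.
Ldha: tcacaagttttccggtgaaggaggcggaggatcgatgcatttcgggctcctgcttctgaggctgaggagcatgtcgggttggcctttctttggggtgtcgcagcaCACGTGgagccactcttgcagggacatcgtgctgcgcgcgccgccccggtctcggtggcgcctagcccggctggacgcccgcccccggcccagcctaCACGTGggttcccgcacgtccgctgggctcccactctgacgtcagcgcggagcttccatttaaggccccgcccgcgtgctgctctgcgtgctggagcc
Ldhb: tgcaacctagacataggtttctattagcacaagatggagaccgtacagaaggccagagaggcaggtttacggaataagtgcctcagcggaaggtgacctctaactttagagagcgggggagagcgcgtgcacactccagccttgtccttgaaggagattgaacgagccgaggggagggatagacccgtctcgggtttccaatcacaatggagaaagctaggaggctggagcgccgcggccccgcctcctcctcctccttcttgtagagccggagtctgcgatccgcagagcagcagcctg

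CACGTG occurred 2 times in this Ldha window and was not found in the Ldhb window or in a second Ldha window. Over the 12 promoter windows of 9 of the genes it occurred in 2, the other being that of Slc16a1, and it occurred in 7.15% of 32851 RefSeq promoter windows of the same length. A match of letters is a description and not a binding site. Slc2a3 had no entry in the promoter table.

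Ldhb was at 1576, 1284 and 1377 CPM in the MII inputs, at 807, 908 and 994 in L1C and at 69.3, 81.2 and 81.9 in L2C. No library of one stage overlapped another. The log2 change was -0.64 ± 0.13 from MII to L1C (adjusted p = 0.00063) and -3.54 ± 0.14 from L1C to L2C (adjusted p = 1.9e-11), which is 11.7-fold lower. Ldha was at 3.06, 1.55 and 1.46 CPM at MII, at 3, 2.92 and 1.94 at L1C and at 12.3, 16.5 and 17.7 at L2C. MII and L1C overlapped, with a log2 change of 0.36 ± 0.30 (adjusted p = 0.33) that became 0.80 (adjusted p = 0.036) without MII replicate 1, and every L2C library lay above them. From L1C to L2C Ldha rose 5.87-fold (log2 change 2.55 ± 0.28, adjusted p = 8.8e-07). Per kb of exons Ldha made up 0.0665% ± 0.0223 (SD, n = 3) of both subunits in MII oocytes, 0.14% ± 0.0426 in L1C embryos and 8.62% ± 0.792 in L2C embryos. Per kb of gene span the share at L2C was 19.9% ± 1.61, and in Ctrl embryos of that stage, counted over exons, it was 1.71% ± 0.337. Ldhb was the main transcript of the pair in each of these. Sequences at least 90% identical over at least 50% of the transcript lie at 15 other places in the genome for Ldha and 1 for Ldhb, and genes annotated there held 1.54% and 4.22% of the summed counts.

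The glucose transporters moved in opposite directions from L1C to L2C in the inputs. Slc2a1 encodes GLUT1 and Slc2a3 the high-affinity transporter GLUT3, and both carry glucose across the plasma membrane. Slc2a1 lies on the plus strand (chr4:119108711-119137983) and Slc2a3 on the minus strand (chr6:122727809-122801640). Slc2a1 was at 26.6, 28.4 and 25.1 CPM at MII, and L1C libraries overlapped these values with 16.4, 24.4 and 25.5 CPM (log2 change -0.27 ± 0.19, adjusted p = 0.23). L2C inputs held 5.33, 3.85 and 3.92 CPM. It fell 5.05-fold from L1C to L2C (log2 change -2.34 ± 0.20, adjusted p = 6.7e-08). Slc2a3 was at 0.474, 0.599 and 0.563 CPM at MII, at 2.15, 3.11 and 3.28 at L1C and at 57.5, 66.5 and 61.2 at L2C, with no overlap between stages. The MII values rest on 9.96 to 12.1 counts per library. Slc2a3 rose by log2 2.38 ± 0.25 (adjusted p = 2.7e-06) and then by 4.44 ± 0.19 (adjusted p = 3.5e-11), the largest change among the 10 genes at either step. Within a library and per kb of exons, Slc2a3 made up 0.986% ± 0.106 (SD, n = 3) of the pair at MII, 5.89% ± 0.107 at L1C and 87.2% ± 2.86 at L2C. In Ctrl embryos at L2C, counted over exons, its share was 40.6% to 53.8%, so that neither transporter led there. A processed pseudogene, Gm4482, lies inside the span of Slc2a3, and 2 antisense genes overlap that of Slc2a1.

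**Figure D2:**
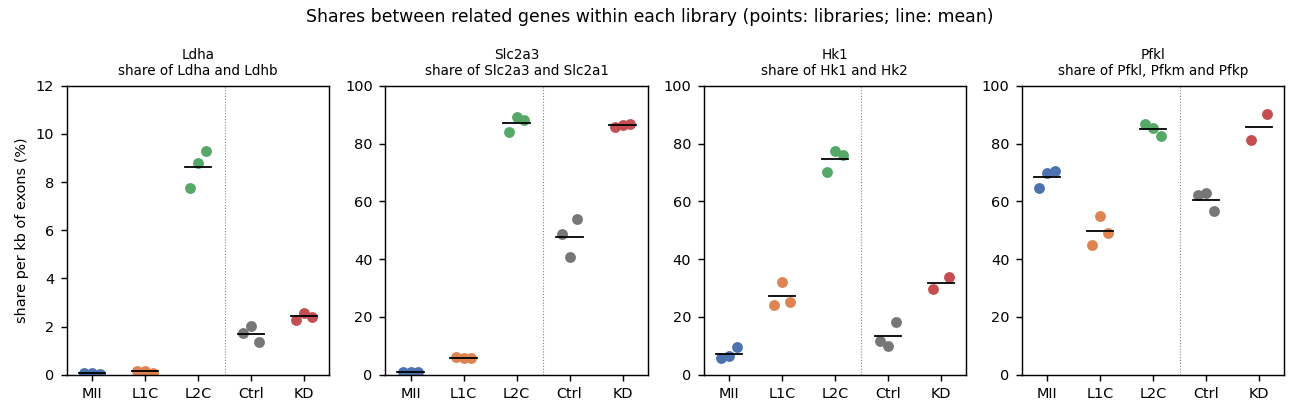
Share of 1 gene among related genes within each library, per kb of exons, in percent; the first panel ends at 12% and the others at 100%. Points are libraries and lines means; the dotted line separates the SLIM-seq inputs from the KD experiment, which was counted differently. Slc2a3 passes from 0.986% to 87.2% of its pair in inputs from MII to L2C and is at 47.7% in Ctrl; Ldha reaches 8.62% in L2C inputs and is at 1.71% in Ctrl.

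Slc16a1, which encodes the monocarboxylate transporter MCT1, lies on the plus strand (chr3:104638668-104658462) and was called higher only at the step from L1C to L2C. It was at 13.8, 13.8 and 15.4 CPM at MII, 18.6, 17.1 and 18.4 in L1C embryos and 33.1, 35.8 and 32.1 at L2C. The stages did not overlap, but the step from MII to L1C was not called (log2 change 0.33 ± 0.14, adjusted p = 0.055), while that to L2C was (0.90 ± 0.14, adjusted p = 2.4e-05). The step from MII to L1C was called with library size scaling (0.38, adjusted p = 0.026). Its relative Slc16a3 (MCT4) rose at both steps, by log2 1.45 ± 0.35 and 2.49 ± 0.29, and Slc16a7 (MCT2) fell at the second (log2 change -1.30 ± 0.30). Per kb of exons Slc16a1 was 91% ± 0.884 (SD, n = 3) of the 3 carriers at MII, 87.5% ± 3.46 at L1C and 80.2% ± 1.67 at L2C, with no overlap between MII and L2C, and 95.3% ± 1.07 in Ctrl. Bsg, the chaperone of MCT1 and MCT4, fell at both steps (log2 change -0.40 ± 0.14 and -1.34 ± 0.14).

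The E1 subunits of pyruvate dehydrogenase did not move together. Both lie on minus strands, Pdha1 at chrX:160122209-160138413 and Pdhb at chr14:8165996-8173025. Pdha1, the alpha subunit, was at 37.5, 40.4 and 35.5 CPM at MII, 50.7, 48 and 54.8 in L1C embryos and 46.2, 56.6 and 47.3 at L2C. It was higher at L1C than at MII by log2 0.44 ± 0.13 (adjusted p = 0.011; 0.053 without MII replicate 3), and L1C and L2C overlapped. The change from MII to L2C (0.40 ± 0.13, adjusted p = 0.0096) was 0.34 without MII replicate 3 and 0.30 without L2C replicate 2 (adjusted p = 0.056 and 0.052). Pdhb, the beta subunit, was at 33.1, 26.3 and 29.7 CPM at MII, fell to 21.2, 19.1 and 17 at L1C (log2 change -0.63 ± 0.15, adjusted p = 0.0021) and rose to 61.3, 52.5 and 64.2 at L2C (1.64 ± 0.15, adjusted p = 9.9e-08). The ratio of Pdha1 to Pdhb per kb of exons was 1.33 ± 0.224 (SD, n = 3) at MII, 2.8 ± 0.463 at L1C and 0.884 ± 0.199 at L2C. Per kb of gene span it was 0.558 ± 0.0938, 1.17 ± 0.194 and 0.371 ± 0.0833, so which subunit was higher at MII depends on the length used, and in Ctrl embryos, counted over exons, it was 0.289 ± 0.0058. Map3k15 overlaps Pdha1 on the other strand.

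Among the glycolytic enzymes, Hk1 (chr10:62268855-62379908) and Pfkl (chr10:77986947-78010083) lie on the minus strand and Pkm (chr9:59656368-59679375) on the plus strand. Hk1, a hexokinase that adds the first phosphate to glucose, was at 0.732, 0.649 and 1.18 CPM at MII, 2.32, 3.62 and 3.07 in L1C embryos and 11.8, 14.5 and 15.8 at L2C. It rose by log2 1.82 ± 0.29 (adjusted p = 0.00011) and 2.23 ± 0.24 (adjusted p = 6.5e-07), while Hk2 fell from L1C to L2C (log2 change -0.75 ± 0.20), and Hk1 went from 7.2% ± 2.03 of the pair per kb of exons at MII to 74.6% ± 3.73 at L2C (SD, n = 3). In Ctrl embryos of the same stage, counted over exons, Hk1 was 13.3% ± 4.49 of the pair (SD, n = 3), with Hk2 the main form. Hk1os is antisense to Hk1. Pfkl, the liver type of phosphofructokinase, was at 49.8, 54.2 and 54.5 CPM at MII, 20.2, 31.9 and 31 in L1C embryos and 89, 101 and 86.8 at L2C. It fell (log2 change -0.93 ± 0.16, adjusted p = 0.00025) and then rose above its first level (1.74 ± 0.16, adjusted p = 1.7e-07). Pfkm and Pfkp fell at the second step (log2 change -0.68 ± 0.19 and -0.99 ± 0.18), and Pfkl was 84.9% ± 2.15 (SD, n = 3) of the 3 types at L2C in inputs and 60.6% ± 3.48 in Ctrl. Pkm, the pyruvate kinase of most tissues, was at 74.6, 68.6 and 59.9 CPM at MII, 76.3, 84.8 and 114 in L1C embryos and 137, 211 and 140 at L2C. MII and L1C did not overlap, but the change was not called (log2 change 0.44 ± 0.19, adjusted p = 0.059; called at 0.028 without L1C replicate 1, at 0.03 without L2C replicate 2 and at 0.037 with library size scaling). The rise from L1C to L2C was 1.78-fold (log2 change 0.83 ± 0.18, adjusted p = 0.0008). Pklr, the other pyruvate kinase gene, was too low to test.

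Per kb of gene span, the length to which these counts were assigned, Ldhb led at MII with 79.7 CPM per kb ± 8.42 (SD, n = 3), ahead of Pdhb with 4.22 and Pkm with 2.94. Pdha1 (2.33) and Pfkl (2.28) overlapped, and Slc2a1, Slc16a1 and Ldha followed at 0.912, 0.725 and 0.143. Hk1 and Slc2a3 were lowest, at 0.00769 and 0.00738, and overlapped. At L2C Pdhb (8.45 ± 0.869) and Pkm (7.08 ± 1.81) led and overlapped, followed by Ldhb (4.37) and Pfkl (3.99), which overlapped too, Pdha1 (3.09), Slc16a1 (1.7), Ldha (1.09) and Slc2a3 (0.836), with Slc2a1 (0.149) and Hk1 (0.126) at the end. Per kb of exons Ldhb still led at L2C, with 49.3 ± 4.49.

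Over the 9 inputs each of the 10 genes had close company in the genome. For Slc2a3, the genes with the most similar log2 CPM among 9098 genes were Zmat5 and Rnf41 (Pearson r = 0.999 for both), and for Ldhb they were Anxa7 (1.000) and Prr23a3 (0.999). Pdha1 had the fewest neighbours, with 4 genes above an r of 0.95, Elof1 (0.967) and Sun1 (0.960) first, against 1259 for Slc2a3 and 1807 for Ldhb. Pairs of the 10 genes ranged from r = -0.98 (Ldhb with Slc2a3) to 0.99 (Slc2a3 with Slc16a1). The points are 3 stages with 3 libraries each, so these values describe the order of the stages.

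Of 86 other genes of the route in 8 lists, 77 could be tested in the inputs. From L1C to L2C 32 rose and 38 fell, where 44.1% of all genes tested were called higher and 38.8% lower. Their median log2 change was -0.47, against 0.17 for all genes. Aldoa was left out because its symbol belongs to 2 gene identifiers. Of 10 genes tested of the pyruvate dehydrogenase complex and its control, 2 rose and 6 fell. Dlat, the E2 enzyme, fell from 86.9 to 13.8 CPM on average (log2 change -2.65 ± 0.13), Pdhx, which anchors E3, from 199 to 33.7 (-2.56 ± 0.12), and Dld, the E3 enzyme, from 81 to 25.6 (-1.66 ± 0.16). Pdha2, the testis paralogue of Pdha1, fell to 0.059 CPM. The phosphatases that activate the complex parted, with Pdp2 up from 11.9 to 686 CPM (5.85 ± 0.14) and Pdp1 down from 112 to 10.5 (-3.42 ± 0.14). Of the kinases that inactivate it Pdk3 fell (-1.71 ± 0.14), Pdk1 and Pdk2 were not called at this step (-0.08 ± 0.13 and -0.47 ± 0.36), and Pdk4 was too low to test. Of 8 carriers and other lactate dehydrogenases tested 4 rose and 4 fell. Both subunits of the mitochondrial pyruvate carrier rose, Mpc1 from 4.82 to 58.1 CPM (3.58 ± 0.40) and Mpc2 from 10.4 to 231 (4.47 ± 0.23), and so did the testis type Ldhc (2.99 ± 0.27). Ldhd, a D-lactate dehydrogenase, fell (-1.98 ± 0.18), as did Bsg, Slc16a7 and Emb.

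Of 14 glycolytic enzymes tested 7 rose and 6 fell from L1C to L2C. The phosphoglycerate mutase Pgam1 rose by log2 3.54 ± 0.17, and Bpgm, which makes 2,3-bisphosphoglycerate, and the triose phosphate isomerase Tpi1 fell (-1.60 ± 0.13 and -1.22 ± 0.16). Gapdh has 179 near-identical copies that hold 96.7% of the summed counts, and its values (log2 change 0.71 ± 0.36, adjusted p = 0.086) are uncertain, as are those of Pgk1. Of 8 genes tested of the glucose transporter families, whose members need not carry mainly glucose, 2 rose and 4 fell. Slc2a8 rose by 4.44 ± 0.32, and Slc2a9 and Slc2a12 fell (-2.38 ± 0.17 and -2.31 ± 0.20). Slc2a10 had risen from MII to L1C by 2.71 ± 0.11, to a mean of 1659 CPM counted over its gene span; in Ctrl embryos at L2C, counted over exons, it was at 2.44 CPM. Of 17 genes of the tricarboxylic acid cycle 7 rose, among them Idh3g (4.65 ± 0.20) and Mdh2 (4.42 ± 0.15), and 10 fell, among them Sdha (-3.01 ± 0.17) and Dlst (-2.76 ± 0.14). Of 8 genes of the pentose phosphate pathway 5 rose, led by Taldo1 (3.81 ± 0.27) and Pgd (2.81 ± 0.17), and 3 fell, among them G6pdx, its entry enzyme (-3.27 ± 0.19). Of 6 genes tested of pyruvate carboxylation and gluconeogenesis 3 rose and 2 fell, with Pck2 up (4.65 ± 0.47) and Fbp1 down (-4.28 ± 0.18). Of 6 genes of the malate-aspartate shuttle, which brings cytosolic reducing equivalents into the mitochondrion, 2 rose (Got1 by 1.92 ± 0.16, Slc25a11 by 1.86 ± 0.17) and 3 fell, with Slc25a13 and Mdh1 lowest (-2.64 ± 0.14 and -2.57 ± 0.15).

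**Figure D3:**
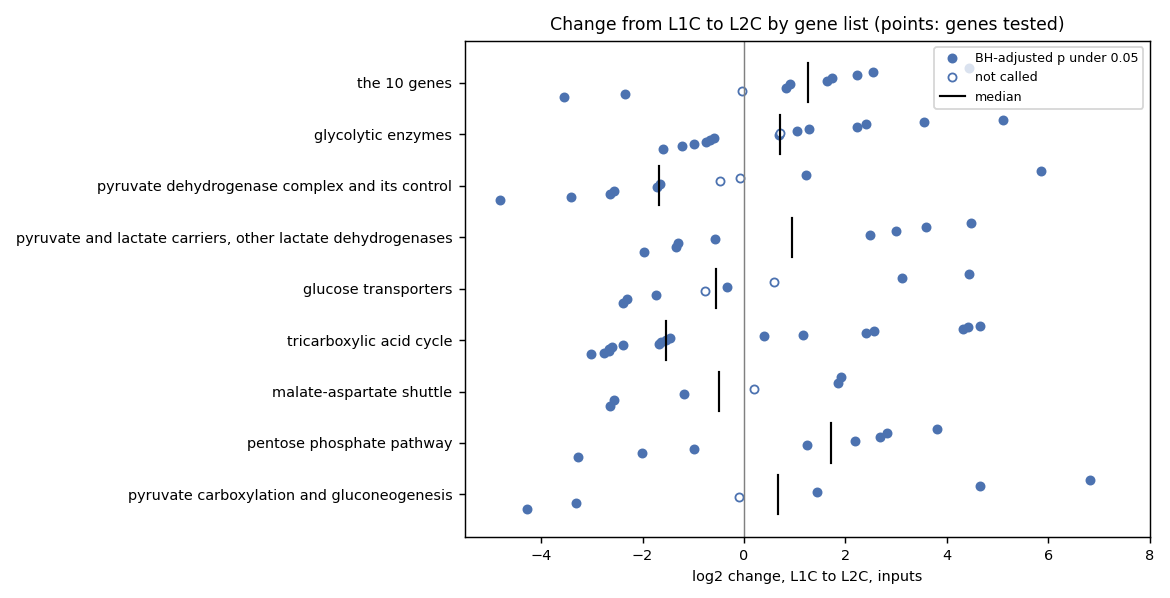
Log2 change from L1C to L2C in the inputs, for the 10 genes (top) and for the genes tested of 8 lists of the route; filled points are called at a BH-adjusted p under 0.05, open points are not, and black lines are medians. The 10 genes have a median of 1.27 and the pyruvate dehydrogenase list one of -1.69.

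In the IP libraries none of the 10 genes was called above its input at any stage. IP and input counts cover whole gene spans, introns included, so these ratios are not those of spliced mRNA alone. The part of intronic reads in them was not tested. Fewer IP than input counts were called for 4 genes at MII, 5 at L1C and 5 at L2C, where 21.0%, 18.2% and 22.0% of 21950 genes tested were called lower. Hk1, Pfkl and Pkm were among these genes at all 3 stages. The zero of this scale depends on how IP and input are scaled to each other: with library sizes alone the median of all genes moved from 0.00, 0.07 and 0.09 to 0.20, 0.37 and 0.34, and the share of calls that were higher moved from 45.7%, 46.5% and 50% to 61.7%, 70.9% and 67.6%. With that scaling Slc16a1 at MII (0.54, adjusted p = 0.0014), Pdhb at L1C and L2C (0.54 and 0.43, adjusted p = 0.0024 and 0.0081) and Ldhb at L1C (0.30, adjusted p = 0.04) were called above their inputs. Of all genes 17.7%, 15.8% and 22.0% were called higher with TMM scaling.

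Pfkl was farthest from its input. The log2 ratios of its 3 IP libraries to the mean input were -2.41, -2.19 and -2.24 in MII oocytes. They were -2.05, -1.74 and -1.6 in L1C embryos and -2.12, -2.51 and -2.32 in L2C embryos. The fitted values were -2.32 ± 0.17, -1.83 ± 0.17 and -2.33 ± 0.17 (adjusted p at most 1.1e-07). Pkm had ratios of -0.9, -0.73 and -0.9, of -0.75, -0.72 and -0.78 and of -1.02, -1.35 and -1.17 at the 3 stages, all below 0 (fitted -0.85 ± 0.16, -0.75 ± 0.16 and -1.17 ± 0.16). Hk1 was lower too, with fitted values of -1.74 ± 0.52, -0.94 ± 0.34 and -0.98 ± 0.30 (adjusted p = 0.011, 0.039 and 0.014). With library size scaling its L1C and L2C values were -0.64 and -0.73 and no longer called, and it had only 0 to 9.02 counts in the MII IPs. Its MII call ended without MII input 3 (-1.47), its L2C call without L2C input 3, and its L1C call without L1C input 2 or 3, IP 1 or 2, or L2C input 3 (-1.01 to -0.74). The L1C call of Hk1 also ended with the replicate number as a block in the fit.

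Slc2a1 was lower in IP at L1C (-0.67 ± 0.19, adjusted p = 0.01) and L2C (-0.58 ± 0.21, adjusted p = 0.032), but not with library size scaling (-0.37 and -0.33). The L1C call ended without L1C input 3 (-0.56), and the L2C call without L2C input 1 (-0.41), IP 2 (-0.41) or IP 3 (-0.63). Slc2a3 was lower at L2C, at ratios of -0.62, -0.76 and -0.77 (fitted -0.72 ± 0.18, adjusted p = 0.0029). At MII its value of -1.10 ± 0.40 (adjusted p = 0.037) rested on 3.02 to 10 counts in the IP libraries and lost its call without any of the 3 inputs or IP 2 or 3. Pdha1 was lower at L1C (-0.30 ± 0.11, adjusted p = 0.037), with a value of 0.00 under library size scaling, and was not called without L1C input 1 or 3 or IP 2 or 3 (adjusted p = 0.06 to 0.13). Ldhb was not called at any stage with TMM scaling (-0.03 ± 0.11, -0.00 ± 0.11 and -0.12 ± 0.12), and nor were Pdhb, Ldha and Slc16a1 (log2 values from -0.81 ± 0.42, for Ldha at MII, to 0.31 ± 0.12, for Slc16a1 at MII). Ldha at MII was called lower without MII IP 2 (-1.47, adjusted p = 0.016) and Slc16a1 higher without MII IP 3 (0.36, adjusted p = 0.047).

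**Figure D4:**
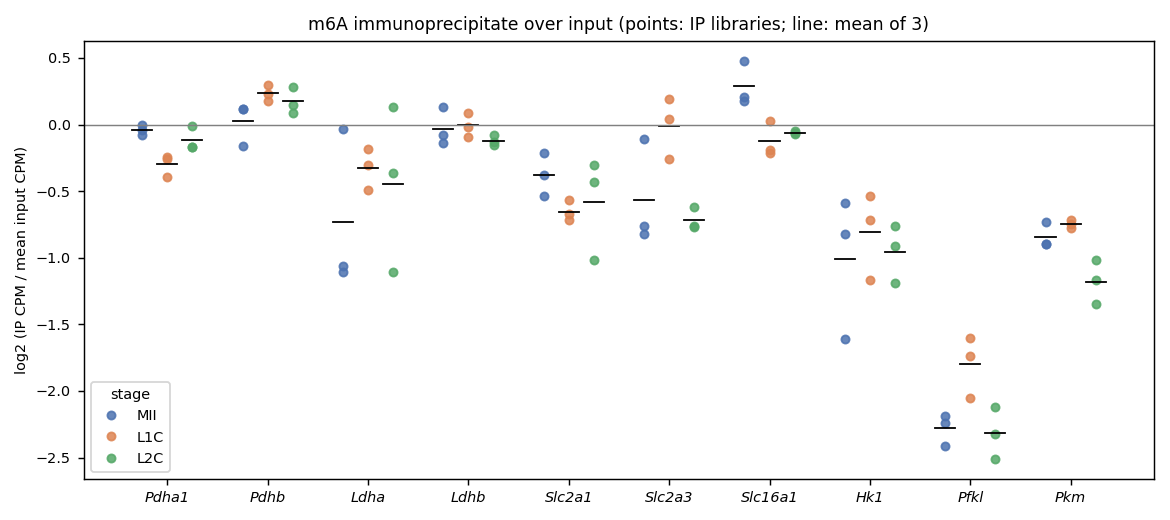
Log2 ratio of each IP library to the mean of the 3 inputs of its stage, with 0.5 CPM added to both; points are libraries, lines means of 3, and the grey line equal CPM. Pfkl lies between -2.51 and -1.6, and Ldhb stays near 0.

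The change of IP over input between stages was not called for any of the 10 genes, beside 7.33% of all genes from MII to L1C, 9.47% from L1C to L2C and 20.3% from MII to L2C. At an unadjusted p under 0.05 there were 3, 2 and 1 genes, and DESeq2 called 1 from L1C to L2C (Slc2a3). The values of Slc2a3 were 1.12 ± 0.46 from MII to L1C and -0.74 ± 0.28 from L1C to L2C (adjusted p = 0.16 and 0.1), and the first was 1.93 (adjusted p = 0.018) without MII IP 1.

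The genes lower in IP at all stages were also the richest in G and C. The longest protein-coding transcripts of Hk1, Pfkl and Pkm were 56.4%, 57.1% and 57.7% G and C, the 3 highest of the 10, and those of Slc16a1 and Pdha1, at 42.9% and 45.5%, the lowest, against a median of 49.1% over 21847 protein-coding genes. Among mRNAs of at least 55% G and C the median log2 IP over input was -0.21, -0.22 and -0.59 at MII, L1C and L2C, and 29.7%, 26.6% and 45.3% were called lower. Across 16054 mRNAs the Spearman correlation of IP over input with G and C content was -0.17, -0.22 and -0.47 at the 3 stages, that with transcript length -0.21, -0.26 and -0.07, and that with GGACT per kb -0.07, -0.08 and -0.13. The pentamer GGACT, a common form of the m6A consensus, occurred 0 times in the Ldhb transcript, 1 time in Ldha, 3 times each in Pdha1, Pdhb, Slc2a1 and Pfkl, 5 in Slc16a1, 6 in Slc2a3, 7 in Pkm and 11 in Hk1. Per kb Pkm (2.88) and Hk1 (2.57) lay above the median of all genes (1.01) and Pfkl (0.804) below it. The part of base composition and length in the IP values was not tested.

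Ythdc1 knockdown was compared with control at L2C. Ldha, Ldhb and Slc2a1 were lower in KD and Pdha1 was higher, so that 4 of the 6 genes in the merged table were called, where 37.4% of 7433 genes tested were called lower and 33.5% higher. Of the 4 genes beyond it Hk1 was higher, where 30.5% of 17074 genes were called higher and 36.4% lower. Slc2a1, at 3.34, 3.33 and 3.28 CPM of the table in KD and 20.5, 23 and 18.5 in Ctrl, was 6.22-fold lower (log2 change -2.64 ± 0.25, adjusted p = 3.2e-08), from 12 to 17 counts in KD libraries and 64 to 116 in Ctrl. Ldhb was at 438, 425 and 474 CPM in KD and 1107, 1080 and 1161 in Ctrl, 2.5-fold lower (-1.32 ± 0.06, adjusted p = 5.2e-12). Ldha was at 21.7, 23.6 and 24.7 CPM in KD and 41.2, 47.3 and 33.8 in Ctrl, 1.76-fold lower (-0.81 ± 0.15, adjusted p = 8.5e-05). For these 3 genes KD and Ctrl libraries did not overlap, as for 72.8% of all genes of the table.

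Pdha1 was at 244, 225 and 249 CPM in KD and 191, 193 and 187 in Ctrl, 1.25-fold higher (log2 change 0.33 ± 0.07, adjusted p = 0.00071). Slc2a3 overlapped, at 41.5, 44.1 and 45.2 CPM in KD and 40.1, 32.6 and 44.5 in Ctrl (0.17 ± 0.13, adjusted p = 0.27). Slc16a1 was at 140, 127 and 116 CPM in KD and 114, 114 and 111 in Ctrl and was not called (0.17 ± 0.09, adjusted p = 0.1), but was at 0.24 without KD replicate 3 (adjusted p = 0.048). Hk1 was at 3.51 and 3.2 CPM of the whole library in KD and 1.02, 0.993 and 2.32 in Ctrl, a log2 change of 1.28 ± 0.40 (adjusted p = 0.011) that rested on 30 and 38 counts in KD and 13 to 21 in Ctrl. Without KD replicate 1 it was 1.21 (adjusted p = 0.057), a fit with 1 KD library that is assumed to vary like the Ctrl libraries. Pdhb, Pfkl and Pkm overlapped between groups and were not called (-0.03 ± 0.08, 0.05 ± 0.17 and 0.12 ± 0.10). Between the glucose transporters, Slc2a3 was 86.4% ± 0.609 per kb of exons in KD and 47.7% ± 6.64 in Ctrl (SD, n = 3 each).

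**Figure D5:**
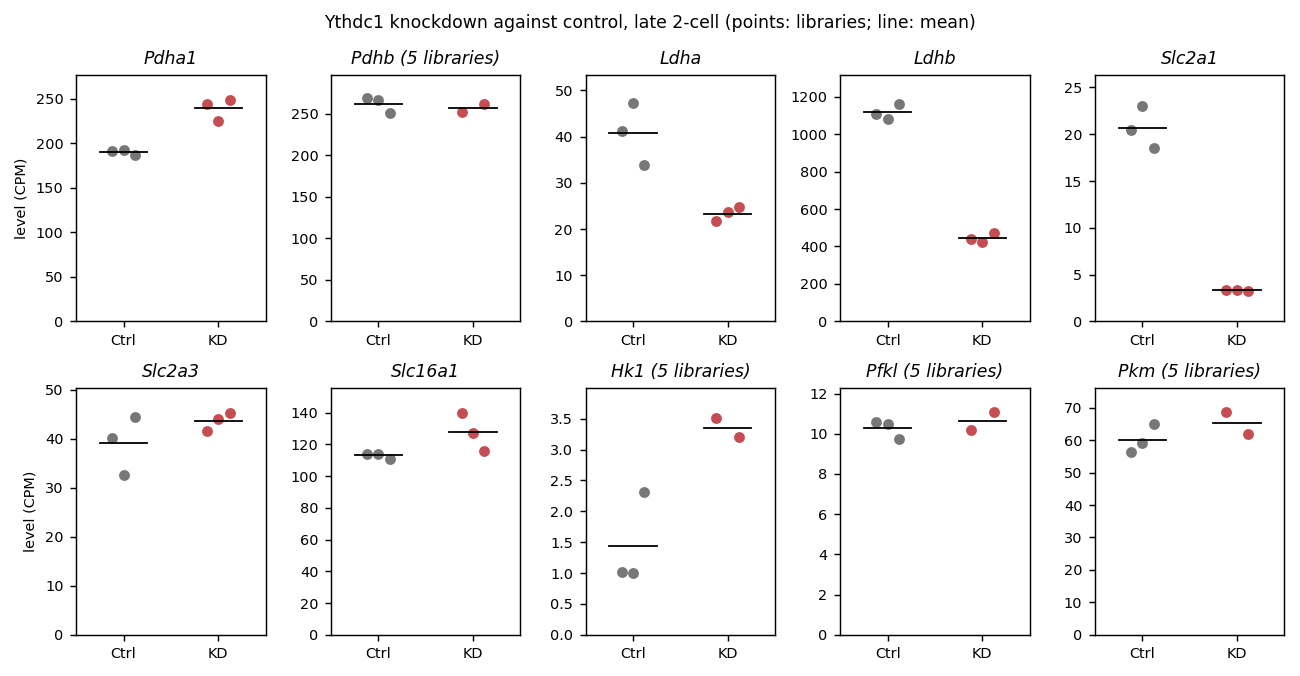
Levels of the 10 genes in KD and Ctrl libraries, on linear axes from 0; genes marked with 5 libraries are in CPM of the whole library and the others in CPM of the merged table. Points are libraries and lines means. Slc2a1 lies at 3.28 to 3.34 CPM in KD and at 18.5 to 23 in Ctrl, and Ldhb at 425 to 474 against 1080 to 1161.

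Markers moved with the groups as well. Of 12 markers of the 2-cell embryo 11 were lower in KD and 1 higher, with a summed level of 457 to 534 CPM in KD and 1724 to 1908 in Ctrl, and of 10 oocyte markers 7 were lower and 1 higher (781 to 857 against 1626 to 1758 CPM). Of the 12 cumulus and granulosa markers 4 could be tested, with 2 higher and 1 lower, and the sum was 267 to 272 CPM in KD and 152 to 163 in Ctrl, with Ptx3, Inhba and Fshr at 0 in both. Of 6 sperm markers 1 could be tested and was lower, and the sum was at most 0.107 CPM in KD and 2.1 to 4.13 in Ctrl. Their part in the changes of the 10 genes was not tested.

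Of the 67 other genes of the route that could be tested 21 were higher in KD and 22 lower, where 30.5% and 36.4% of all genes were called, with a median log2 change of -0.03 against -0.09 for all genes. Of the partners of the 10 genes, Bsg was lower (log2 change -1.17 ± 0.13), as were Pfkm (-2.34 ± 0.48), Pdhx (-0.67 ± 0.12), Pdk3 (-0.84 ± 0.17) and Slc16a3 (-1.85 ± 0.47). Pdk2 was lower as well (adjusted p = 0.004), with 0 to 0.107 CPM in KD. Pdp2 (0.93 ± 0.09), Mpc2 (0.75 ± 0.08), Dld (0.43 ± 0.10) and Pdk1 (0.28 ± 0.12) were higher. Hk2, Pfkp, Dlat, Pdp1, Mpc1 and Ldhc were not called. In the tricarboxylic acid cycle 6 of 17 genes were higher, among them Sdhd (2.10 ± 0.30) and Idh3b (1.07 ± 0.11), and 5 lower, among them Ogdh (-1.25 ± 0.10) and Dlst (-1.04 ± 0.23). Of 6 genes tested of the pentose phosphate pathway 3 were higher, led by Tkt (2.99 ± 0.29), and 1, G6pdx, was lower (-0.83 ± 0.11). Fbp1, of gluconeogenesis, was at 0 in both KD libraries and at 1.23 to 1.76 CPM in Ctrl.

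Levels at L2C in the inputs and in Ctrl were not compared by a test, since the inputs were assigned to whole gene spans and the KD experiment to exons. Side by side, per kb of exons, Ldhb was at 49.3 CPM in inputs and 273 in Ctrl, Pdhb at 15.4 and 67.9, Pdha1 at 13.4 and 19.6, Pkm at 32.6 and 12, Slc16a1 at 7.61 and 9.81 and Ldha at 4.68 and 4.74. Slc2a3 was at 8.52 and 2.07, Pfkl at 13.8 and 1.54, Hk1 at 1.65 and 0.17 and Slc2a1 at 1.25 and 2.27.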

How the data were processed

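SLIM-seq reads were quantified by the authors using kallisto (1 target for each of 55471 genes, introns included). The deposited values are estimated counts, which the authors did not normalize, and TPM from the same runs, which the authors scaled per base of target and which were not used. For the KD experiment the authors aligned reads with HISAT2 to GRCm38 and counted reads over exons with featureCounts. These deposited counts are not normalized. No strand setting is recorded for either, so a gene and an antisense partner cannot be told apart. The submitters' processing notes also name Trimmomatic. The labels name a stranded SMART-Seq kit, and the methods of the study a protocol based on Smart-seq2 with oligo-dT priming. The merged KD table holds 25739 genes (46.4%).

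Estimated counts were rounded and analysed with edgeR 4.0.16 in R 4.3.3 (TMM, its low-count filter, the quasi-likelihood test), with 9 inputs, 18 SLIM-seq libraries or the KD experiment in a fit. KD genes beyond the table were fitted with 5 libraries. DESeq2 1.42.0 was the other tool. On simulated counts for the change from MII to L1C in inputs (19903 genes), the test found 54 of 100 genes changed by a log2 of 1 and 80 of 100 changed by a log2 of 2, none in the wrong direction. For the change of IP over input from MII to L1C (21950 genes) it found 25 and 64 of 100. Unchanged genes called numbered 8 and 5, and 20 in the KD fit of 17074 genes. Gene names and exons came from GENCODE M21, positions of which equal those of the files for 54900 genes, promoters from RefSeq (GRCm38.p6), and copies from minimap2 2.31.

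The 10 genes and all lists were chosen with earlier results of these data known. Other genes named are the direct partners and paralogues of the 10 and, per list and comparison, up to 2 called genes per direction with the largest change and a mean of at least 10 counts; not every gene that this rule gives is named. Replicates of a group differed by more than counting noise (chi-square per degree of freedom at least 2.67). Alternatives were the other tool, library size scaling, no filter, a replicate block, each library left out, only the stages compared, unadjusted p values, thresholds taken from the study, and levels per kb of exons.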

Additional observations from a re-analysis of the deposited data

Results flagged for a closer look

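Of 21 partners and paralogues of the 10 genes 20 could be tested for a change of IP over input between stages (edgeR's interaction test, BH-adjusted p under 0.05), and 3 were called from MII to L1C, 1 from L1C to L2C and 7 from MII to L2C, beside 7.33%, 9.47% and 20.3% of all genes. None of the 10 genes had such a call. Each value is the difference of log2 IP over input between stages. Pdk1 moved by 0.72 ± 0.17 (SE) from MII to L1C, 1.24 ± 0.17 from L1C to L2C and 1.96 ± 0.17 from MII to L2C (adjusted p = 0.011, 0.00017 and 2.5e-07), from -2.12 ± 0.12 at MII to -0.17 ± 0.12 at L2C. Hk2 moved by 1.01 ± 0.28 from MII to L1C and 1.29 ± 0.29 from MII to L2C (adjusted p = 0.034 and 0.0033), and the first lost its call in 8 of 18 fits without 1 library. From MII to L2C Pfkp moved by 1.22 ± 0.24, Pdk3 by 0.88 ± 0.19, Pdp1 by 0.65 ± 0.18 and Pdp2 by -0.63 ± 0.15 (adjusted p = 0.0014, 0.0022, 0.014 and 0.0052). Pdha2 moved by 1.92 ± 0.65 from MII to L2C (adjusted p = 0.044), where its L2C input mean was 0.059 CPM, and lost its call in 12 of 18 fits without 1 library. Slc16a3 moved by 3.04 ± 0.84 from MII to L1C (adjusted p = 0.033) and lost it in 6 of 18. With 3 libraries per group, single libraries that stand apart were not looked for.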

How the results depend on the processing

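The number of the 10 genes called changed by less than 1.5 times in the 3 comparisons of inputs under every alternative. For IP over input thresholds taken from the study (log2 above 0, unadjusted p under 0.05, more than 1 count in each input), applied to the edgeR values without its DESeq2 fit, its treatment of missing p values or its count of agreeing replicates, gave 1 gene at MII (Slc16a1, 0.31) and 0 at L1C and 0 at L2C, in place of 4, 5 and 5 called lower. Leaving out 1 library gave 2 to 4 at MII (2 without input 3), 2 to 5 at L1C (2 without input 3 and 3 without IP 2) and 4 to 5 at L2C. Library size scaling moved Pdha1 at L1C from -0.30 to 0.00, no longer called, and Ldhb at L1C from -0.00 to 0.30 (adjusted p = 0.04). By its construction this scaling shifts all genes alike. For the change of IP over input, unadjusted p values gave 3, 2 and 1 genes in place of 0. DESeq2 gave 1 and a fit of only the stages compared 1 from L1C to L2C, and the latter also 1 (Slc16a1) from MII to L2C. Leaving out 1 library gave 0 to 1 from MII to L1C (Slc2a3, without MII IP 1). In the KD table the thresholds of the study (a log2 change over 1 in size and an unadjusted p under 0.05), applied to the edgeR values, left 2 of 4 genes, Ldhb and Slc2a1, and for the genes beyond it leaving out 1 library gave 0 to 1 (0 without KD replicate 1, where the 1 KD library left is assumed to vary like Ctrl). The cause of these differences was not tested beyond what each setting removes.

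Library size scaling moved the median log2 change of all genes from 0.40 to 0.54 from MII to L2C and from -0.06 to -0.19 in the KD table, and the share of higher calls among changes of IP from MII to L1C from 42.6% to 53.3%. Counts of all genes called from L1C to L2C for IP fell from 2079 to 1367 without L1C IP 3 and 1269 without L2C IP 3. The thresholds of the study, which for IP count only genes above input, gave 4223, 4083 and 5250 genes. The main fit called 3877, 3463 and 4830 genes higher in IP, and 8476, 7451 and 9664 in either direction. For KD the thresholds of the study gave 2764 genes in place of 5269 in the KD table and 6639 in place of 11413 over the whole annotation. Unadjusted p values gave 4420, 5283 and 7092 genes for the changes of IP in place of 1609, 2079 and 4452. Per kb of exons 42, 42 and 39 of 45 pairs of the 10 genes kept their order at MII, L1C and L2C. Shares of related genes per kb of gene span, added after seeing the data, kept Ldhb, Slc2a3, Hk1, Pfkl and Slc16a1 as the main form at L2C in inputs (Slc2a3 84.8%, Hk1 65.2%, Pfkl 93.7%, Slc16a1 69%). These shares use the same counts with another length. In Ctrl embryos, counted over exons, Hk1 was 13.3% and Slc2a3 47.7%, so neither was clearly the main form there.

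The study took input and IP RNA from shared batches but does not tie replicate numbers to them, and the numbers were treated as names: the correlations of their deviations from the group means ran from -0.473 to 0.482 in SLIM-seq and from -0.104 to 0.090 in the KD table, and 11 of 45 SLIM-seq pairs and 0 of 3 KD pairs were best with their own number. With the replicate number as a block 6, 9 and 10 of the 10 genes were called in the 3 comparisons of inputs, 4, 4 and 5 for IP over input (Hk1 at L1C lost its call, adjusted p = 0.052), 0 for each change of IP, and 4 and 1 for KD.

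With 9.96 to 12.1 counts of Slc2a3 per MII input and 12 to 17 of Slc2a1 per KD library, small differences could not be detected for these genes.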
